A study of Homo sapiens with 12 samples.

Results

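The BCL2 family is the group of proteins that decides whether the outer mitochondrial membrane is opened during apoptosis, and 10 of its genes are described here. They were taken by gene symbol from the deposited tables, in which each of the 10 symbols matched a single row among 58735 genes. RNA was sequenced from HLE-B3, an immortal cell line from the human lens epithelium, in 12 libraries. The groups were WT at 0 h, WT after 12 h of 200 μM H2O2, Atg7KO at 0 h and Atg7KO after 12 h of 200 μM H2O2, with 3 biological replicates each. Atg7KO cells carry a CRISPR/Cas9 knockout of ATG7, an enzyme needed to form autophagosomes, and the study asked how its loss bears on cell death under oxidative stress. The knockout lines were raised from picked clones, and the labels do not say which clone gave the libraries, so the genotype and the clone cannot be told apart. Untreated cells were collected at 0 h, so H2O2 and 12 h of culture cannot be told apart either.

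Members of this family bind each other through short BH3 helices. Anti-apoptotic members (BCL2, BCL2L1 which encodes Bcl-xL, MCL1 and BCL2A1) hold the effectors BAX and BAK1 in check. Once released, the effectors form pores through which cytochrome c leaves the mitochondrion, and apoptosis starts. BH3-only members (BBC3 or PUMA, PMAIP1 or NOXA, BCL2L11 or BIM, and BID) carry the stress signal by occupying the anti-apoptotic members or by activating the effectors. In the lens, epithelial cells are the dividing layer under the front capsule, and their loss is a feature of cataract. Transcript levels say nothing of the protein, and many of these proteins are also regulated by splicing, phosphorylation or degradation, which gene counts do not show.

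Between 15602183 and 17659496 reads per library fell on genes. One library stood apart from its group, untreated Atg7KO replicate 1. Its counts differed from the other replicates of the group with a chi-square of 76.4 and 78.1 per gene, against 2.09 to 4.43 in every other pair of replicates. Results for the members that rest on untreated Atg7KO cells are therefore given with and without it. ATG7 itself was listed at a mean of 2.55 FPKM in WT and 3.55 in Atg7KO cells at 0 h, and at 1.96 and 2.19 after H2O2, where FPKM is a read level per gene length and library size. Its transcript was not lower in Atg7KO cells, so these counts do not check the genotype label. The 12 lens markers were of the epithelium, except for the fibre cell markers MIP and BFSP1. In WT cells at 0 h 3 had a mean above 1 FPKM, GJA1 at 26.1, SIX3 at 3.06 and PAX6 at 1.27. CRYAA was listed at 0 in all untreated libraries. FOXE3, PROX1 and the fibre marker MIP were each under 0.1 FPKM on average in every group. COL1A1, a collagen gene typical of fibroblasts, averaged 626 FPKM in WT cells at 0 h, 272 in WT after H2O2, 437 in Atg7KO at 0 h and 243 in Atg7KO after H2O2. Of 10 markers of other cell types, COL1A1 among them, 5 averaged under 0.1 FPKM in WT cells at 0 h and also after H2O2. The summed level of all 10, nearly all of it COL1A1, went from between 624 and 656 FPKM to between 270 and 288 in WT libraries with H2O2. In Atg7KO libraries this summed level went from between 349 and 505 to between 244 and 253. Its part in the results below was not tested, and fewer cells with a transcript cannot be told apart from less RNA per cell in bulk samples.

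Sequences before a RefSeq start are shown for the 3 members whose transcripts moved most in WT cells. Several stress-activated transcription factors are known to act on genes of this family. RefSeq promoter windows on GRCh38.p14, with 250 bases before and 50 after the start, were matched by symbol for 9 of the 10 members in 14 windows. MCL1 had no entry. The 120 bases before the start are printed 5′ to 3′ on the strand of the gene, and capitals mark the motif named for each, with positions counted from the start as 0. PMAIP1 (chr18:59899876-59899995, plus strand) holds the cyclic AMP response element core TGACGT on the opposite strand, at -56 to -51. BBC3 (chr19:47232668-47232787, minus strand) holds the AP-1 motif TGANTCA at -113 to -107. BCL2A1 (chr15:79971197-79971316, minus strand) holds TATAAA at -70 to -65 and the C/EBP-ATF motif TGATGNAA at -63 to -56. The gene coordinates deposited with the counts put the 5′ ends elsewhere, at 59899948 for PMAIP1, 47232766 for BBC3 and 79971446 for BCL2A1. By those ends the BCL2A1 stretch lies wholly within its gene, and the PMAIP1 and BBC3 stretches lie partly within theirs.
PMAIP1: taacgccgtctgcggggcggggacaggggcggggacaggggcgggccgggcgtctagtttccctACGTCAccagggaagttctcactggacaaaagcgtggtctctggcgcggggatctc
BBC3: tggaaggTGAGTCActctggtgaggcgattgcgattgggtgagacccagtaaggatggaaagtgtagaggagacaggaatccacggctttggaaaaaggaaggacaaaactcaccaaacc
BCL2A1: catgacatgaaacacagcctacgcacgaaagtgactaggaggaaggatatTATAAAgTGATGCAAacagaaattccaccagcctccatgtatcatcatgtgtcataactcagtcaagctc

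A total of 7 motifs was searched on both strands. Among all 35116 windows, TGACGT occurred in 7.98%, TGANTCA in 7.71%, TGATGNAA in 3.62% and TATAAA in 11.5%. The GC box GGGCGG, found 4 times before the PMAIP1 start and 3 times before that of BCL2L11, occurred in 45.0% of windows, and the κB motif, in 11.3% of windows, was in no member's window. The FOXO motif GTAAACA lay at -223 to -217 of the BCL2L11 window and was present in 3.42% of windows. These matches describe letters in 1 window per start, and neither binding nor use of the start was measured here.

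To see how the family responds to oxidative stress, cells after 12 h of H2O2 were compared with untreated cells of the same genotype. In WT cells the transcripts of all 10 members rose, by between 0.52 (BID) and 4.05 (BCL2A1) on the log2 scale. Mean FPKM of the BH3-only genes PMAIP1 and BBC3 rose 13.3 and 11.5 times, that of BAK1 and BCL2L11 4.12 and 4.07 times, and that of MCL1, BAX and BCL2 2.12, 2.09 and 1.98 times. Calls were made by the quasi-likelihood test of edgeR at an adjusted p under 0.01, adjusted by Benjamini-Hochberg over all genes. Of all genes tested in this comparison, 30.9% were called higher. With a log2 fold change beyond 1 and a mean above 1 FPKM as well, 8 of the 10 members were called higher, against 7.3% of all genes. The median log2 fold change was 1.84 over the members and -0.01 over all genes tested.

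**Figure D1:**
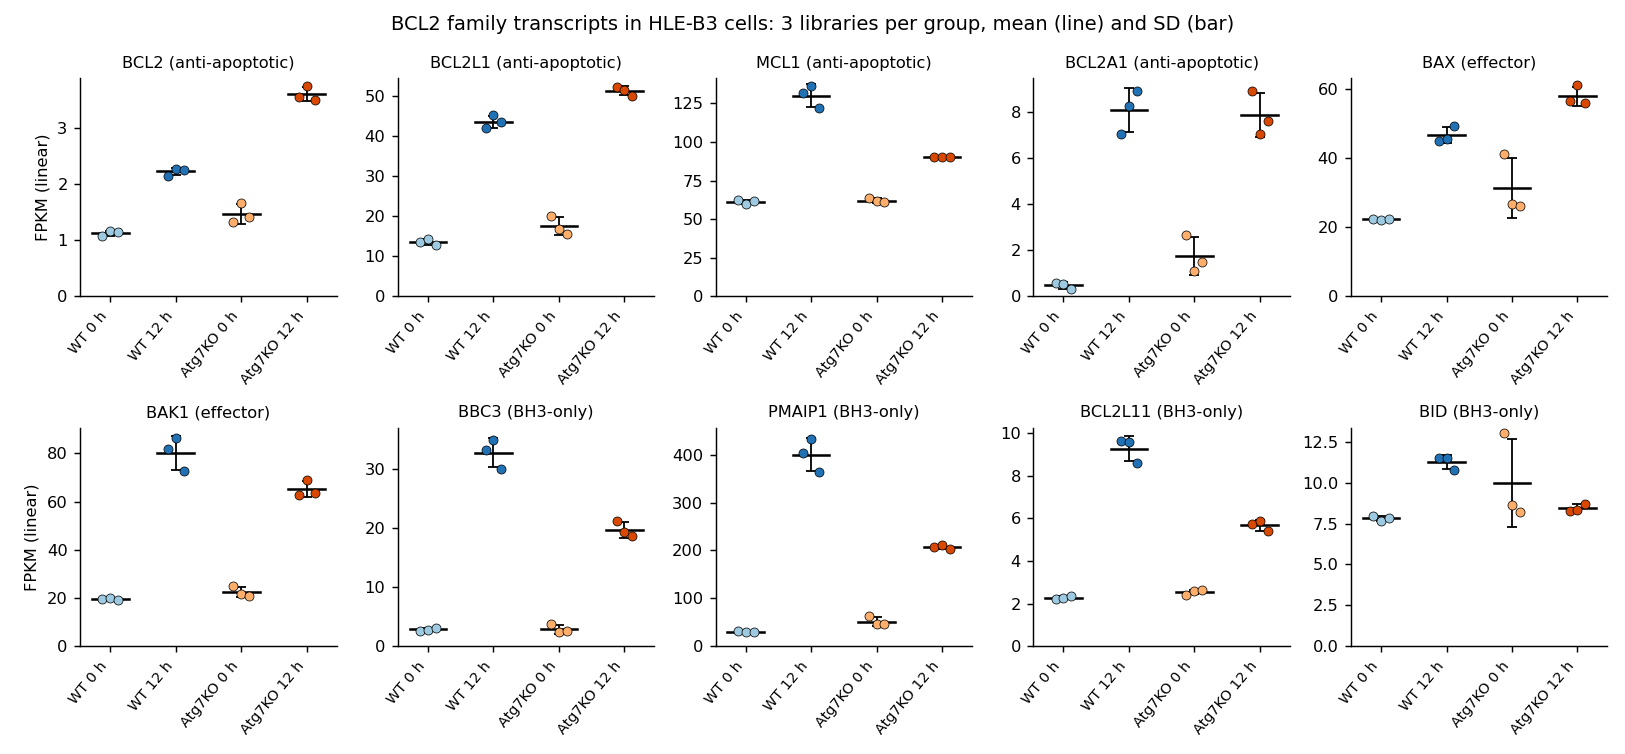
FPKM (linear axis from 0) of each of the 10 BCL2 family genes in the 12 libraries, 3 points per group with the group mean as a line and the SD as a bar. PMAIP1 reaches 364 to 434 FPKM in WT cells after H2O2 and 202 to 210 in Atg7KO cells, while BCL2 and BCL2L1 are higher in Atg7KO cells.

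Among the anti-apoptotic members, MCL1 (ENSG00000143384, chr1:150574551-150579738, minus strand, GRCh38) had the highest transcript level per length. MCL1 is a short-lived protein that binds BIM and BAK and is itself bound by NOXA. Its FPKM values were 62.3, 60.0 and 61.9 in WT cells at 0 h and 132, 136 and 122 after H2O2. In Atg7KO cells they were 63.6, 61.7 and 60.9 at 0 h and 90.6, 90.5 and 90.1 after H2O2. All 6 untreated libraries lay together, all treated libraries lay above them, and the treated WT libraries lay above the treated Atg7KO libraries. MCL1 rose by 1.08 on the log2 scale in WT (SE 0.04, adjusted p = 1.87e-26) and by 0.54 in Atg7KO cells (SE 0.08, adjusted p = 0.0023), the latter 0.55 without untreated Atg7KO replicate 1 (adjusted p = 1.26e-41).

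BCL2L1 (ENSG00000171552, chr20:31664452-31723989, minus strand) is spliced into Bcl-xL and a shorter pro-apoptotic form, and the gene count holds both. It was listed at 13.6, 14.4 and 12.9 FPKM in WT at 0 h and at 42.0, 45.2 and 43.4 after H2O2. Atg7KO cells had 20.1, 16.9 and 15.7 FPKM at 0 h and 52.3, 51.5 and 50.1 after H2O2. The 4 groups did not overlap, and their order from low to high was WT at 0 h, Atg7KO at 0 h, treated WT and treated Atg7KO. The rise was 1.67 in WT (SE 0.05, adjusted p = 5.83e-30) and 1.54 in Atg7KO cells (SE 0.11, adjusted p = 8.77e-05) on the log2 scale. The latter was 1.64 without untreated Atg7KO replicate 1 (adjusted p = 6.87e-110). An antisense gene, ABALON, overlaps BCL2L1 and holds 1468 reads over all libraries against 21272 of BCL2L1, and the counting is not stated to use strand.

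BCL2 (ENSG00000171791, chr18:63123346-63320128, minus strand), the founding anti-apoptotic member, was the member with the lowest mean FPKM after H2O2 in both genotypes. Its FPKM values were 1.07, 1.16 and 1.14 in WT at 0 h and 2.15, 2.26 and 2.26 after H2O2. In Atg7KO cells they were 1.33, 1.66 and 1.41 at 0 h and 3.55, 3.75 and 3.50 after H2O2. Again no groups overlapped, with treated Atg7KO cells highest. BCL2 rose by 0.98 in WT (SE 0.09, adjusted p = 4.04e-13) and by 1.29 in Atg7KO cells (SE 0.11, adjusted p = 0.000216) on the log2 scale. Leaving out the untreated Atg7KO library that stood apart gave 1.21 in Atg7KO cells (adjusted p = 4.73e-37).

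BCL2A1 (ENSG00000140379, chr15:79960889-79971446, minus strand), whose product BFL-1 is a known NF-κB target that binds BIM and BID, was barely detected in untreated WT cells, with counts of 11, 11 and 6 reads. Its FPKM values were 0.580, 0.549 and 0.310 in WT at 0 h and 7.04, 8.23 and 8.92 after H2O2. In Atg7KO cells they were 2.67, 1.08 and 1.49 at 0 h and 8.90, 7.04 and 7.62 after H2O2. The untreated groups did not overlap each other, and the treated groups did. Its log2 fold change with H2O2 was the highest of the members in WT, at 4.05 (SE 0.24, adjusted p = 5.45e-20), and was 2.17 in Atg7KO cells (SE 0.31, adjusted p = 0.00157), with the few untreated reads limiting both. Without the untreated Atg7KO library that stood apart, at 2.67 FPKM, the value in Atg7KO cells was 2.59 (adjusted p = 3.78e-26).

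The effectors differed in size of response. BAK1 (ENSG00000030110, chr6:33572547-33580293, minus strand), which sits in the outer mitochondrial membrane of healthy cells, was listed at 19.4, 19.96 and 19.0 FPKM in WT at 0 h and at 81.6, 86.2 and 72.7 after H2O2. In Atg7KO libraries the levels were 24.9, 21.7 and 20.9 FPKM at 0 h and 62.8, 68.9 and 63.5 after H2O2. The treated WT libraries lay above the treated Atg7KO libraries, and at 0 h all Atg7KO libraries lay above the WT libraries, a difference that was not called. BAK1 rose by 2.04 in WT (SE 0.06, adjusted p = 2.63e-32) and by 1.53 in Atg7KO cells (SE 0.10, adjusted p = 6.03e-05) on the log2 scale. The rise in Atg7KO cells was 1.60 without untreated Atg7KO replicate 1 (adjusted p = 7.76e-101).

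BAX (ENSG00000087088, chr19:48954815-48961798, plus strand) moves from the cytosol to mitochondria on activation. It was listed at 22.6, 22.1 and 22.4 FPKM in WT at 0 h and at 45.1, 45.8 and 49.4 after H2O2. In Atg7KO cells it was listed at 41.4, 26.7 and 26.3 FPKM at 0 h and at 56.7, 61.3 and 56.0 after H2O2. The first of the untreated Atg7KO values is the library that stood apart, and it lay closer to treated WT cells than to its own group. BAX rose by 1.06 in WT (SE 0.05, adjusted p = 1.13e-22) and by 0.88 in Atg7KO cells (SE 0.18, adjusted p = 0.00758) on the log2 scale. Without that library the rise in Atg7KO cells was 1.12 (SE 0.05, adjusted p = 8.98e-73).

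PMAIP1 (ENSG00000141682, chr18:59899948-59904306, plus strand) encodes NOXA, a BH3-only protein that binds MCL1 and BFL-1. Its FPKM values were 30.8, 29.3 and 30.4 in WT at 0 h and 403, 434 and 364 after H2O2. In Atg7KO cells they were 62.6, 45.8 and 45.6 at 0 h and 207, 210 and 202 after H2O2. Untreated Atg7KO libraries lay above untreated WT libraries, and treated Atg7KO libraries lay far below treated WT libraries. The mean rose 13.3 times in WT and 4.02 times in Atg7KO cells, with log2 fold changes of 3.72 (SE 0.05, adjusted p = 1.1e-38) and 2.01 (SE 0.14, adjusted p = 8.92e-05). In Atg7KO cells it was 2.16 without the untreated library at 62.6 FPKM, the one that stood apart (adjusted p = 1.67e-169).

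BBC3 (ENSG00000105327, chr19:47220822-47232766, minus strand) encodes PUMA, which binds all anti-apoptotic members. It was listed at 2.60, 2.79 and 3.15 FPKM in WT at 0 h and at 33.2, 35.01 and 30.1 after H2O2. In Atg7KO cells it was listed at 3.72, 2.35 and 2.50 FPKM at 0 h and at 21.1, 19.3 and 18.7 after H2O2. The untreated genotypes overlapped and the treated ones did not. Its mean rose 11.5 times in WT and 6.90 times in Atg7KO cells, with log2 fold changes of 3.52 (SE 0.08, adjusted p = 3.61e-37) and 2.78 (SE 0.18, adjusted p = 6.38e-05). The untreated Atg7KO library at 3.72 FPKM is the one that stood apart, and without it the value in Atg7KO cells was 3.01 (adjusted p = 1.12e-107).

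BCL2L11 (ENSG00000153094, chr2:111119378-111168447, plus strand) encodes BIM, a BH3-only protein that binds all anti-apoptotic members and can activate the effectors. Its FPKM values were 2.22, 2.27 and 2.36 in WT at 0 h and 9.65, 9.58 and 8.62 after H2O2. In Atg7KO cells they were 2.42, 2.59 and 2.63 at 0 h and 5.75, 5.88 and 5.39 after H2O2. The untreated groups were next to each other without overlap, and treated WT cells were well above treated Atg7KO cells. It rose by 2.02 in WT (SE 0.07, adjusted p = 3.27e-28) and by 1.15 in Atg7KO cells (SE 0.10, adjusted p = 0.000156) on the log2 scale, or by 1.11 in the latter without untreated Atg7KO replicate 1 (adjusted p = 8.24e-31). MIR4435-2HG overlaps the gene on the other strand with 10503 reads against 6692 of BCL2L11, so reads from the shared stretch cannot be told apart without strand.

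BID (ENSG00000015475, chr22:17734138-17774770, minus strand) is activated by cleavage, often by caspase-8. It was listed at 7.98, 7.65 and 7.84 FPKM in WT at 0 h and at 11.5, 11.5 and 10.8 after H2O2. Atg7KO libraries had 13.1, 8.66 and 8.21 FPKM at 0 h and 8.25, 8.34 and 8.71 after H2O2. Treated and untreated Atg7KO libraries overlapped, and BID was the only member that did not pass the test in these cells. It rose by 0.52 in WT (SE 0.06, adjusted p = 8.51e-10), whereas its log2 fold change in Atg7KO cells was -0.24 (95% interval -0.66 to 0.17, adjusted p = 0.302). Without the library that stood apart, that value was -0.01 (adjusted p = 0.891).

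In Atg7KO cells, 9 of the 10 members were thus called higher after H2O2, against 13.6% of all genes tested. With the further conditions of a log2 fold change beyond 1 and a mean above 1 FPKM, 7 were called higher, against 6.09% of all genes. Without untreated Atg7KO replicate 1, 9 members were again called higher, when 29.8% of all genes were higher and 28.6% lower. With the conditions on fold change and FPKM 8 were then called, BAX joining the 7, against 6.25% of all genes. With all libraries the median log2 fold change was 1.41 over the members and -0.03 over all genes. Leaving out either of the other untreated Atg7KO libraries, or any treated Atg7KO library, ended the calls of MCL1 and BAX, whose log2 fold changes stayed between 0.52 and 0.55 and between 0.77 and 0.91 in those fits. Leaving out treated Atg7KO replicate 1 also ended the call of BCL2A1, at 2.07.

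**Figure D2:**
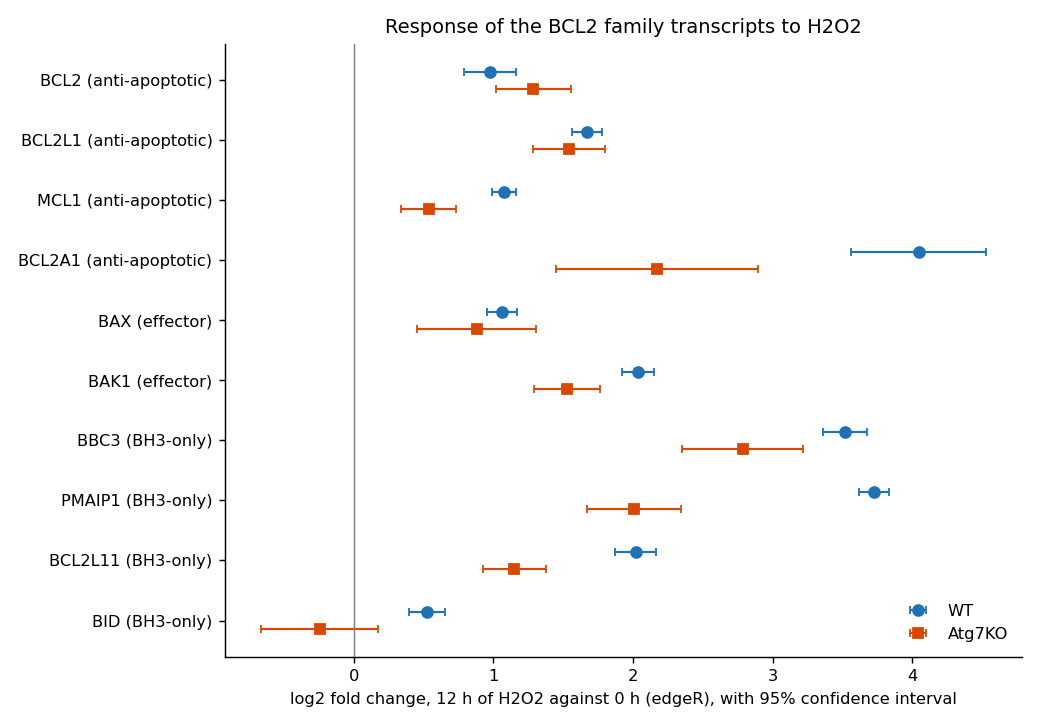
Log2 fold change of each member after 12 h of H2O2 against 0 h in WT (circles) and Atg7KO cells (squares), with 95% confidence intervals from edgeR. PMAIP1 is at 3.72 in WT and 2.01 in Atg7KO cells, and BID is at 0.52 and -0.24. BCL2 is the only member drawn with the larger value in Atg7KO cells. Without untreated Atg7KO replicate 1, which is not drawn, BAX was larger there too, at 1.12 against 1.06 in WT.

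Whether the response itself differed between the genotypes was tested as an interaction over all 12 libraries. The response of 5 members was smaller in Atg7KO cells, and that of none was called larger. Over all genes tested, 7.01% were called with a lower response in Atg7KO cells and 7.02% with a higher one. The BH3-only genes PMAIP1 and BCL2L11 had differences of -1.72 (SE 0.16, adjusted p = 3.06e-05) and -0.87 (SE 0.11, adjusted p = 0.000262) on the log2 scale. Of the anti-apoptotic members, MCL1 differed by -0.54 (SE 0.09, adjusted p = 0.00137) and BCL2A1 by -1.87 (SE 0.43, adjusted p = 0.00691). The effector BAK1 differed by -0.51 (SE 0.12, adjusted p = 0.00834), but by -0.21 with a correction for gene length, which did not pass (adjusted p = 0.129). BCL2A1 is the member with the fewest reads, and its treated levels overlapped between genotypes, so its smaller response goes with a higher level in untreated Atg7KO cells.

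The other 5 members did not pass in this fit. BID differed by -0.77 (95% interval -1.19 to -0.35, adjusted p = 0.0114) and BBC3 by -0.73 (-1.17 to -0.29, adjusted p = 0.0175). Both passed with DESeq2 (adjusted p = 0.00274 for BID and 0.00431 for BBC3) and with no filter on low counts. BID also passed with upper quartile scaling and with the gene length correction (adjusted p = 0.00867 and 0.00846). Neither passed with limma, RLE scaling or the replicate number as a block. BCL2 differed by 0.31 (0.03 to 0.59, adjusted p = 0.0891), BCL2L1 by -0.13 (-0.40 to 0.14, adjusted p = 0.453) and BAX by -0.18 (-0.60 to 0.24, adjusted p = 0.507). These intervals do not show equal responses. Without untreated Atg7KO replicate 1, 7 members were called with a smaller response in Atg7KO cells, when 16.3% of all genes were and 17.8% had a larger one. They were the same 5 with BBC3 at -0.50 (adjusted p = 0.00137) and BID at -0.52 (adjusted p = 3.07e-06), and PMAIP1 was then at -1.55, BCL2A1 at -1.44, BCL2L11 at -0.90, MCL1 at -0.52 and BAK1 at -0.43. All 4 BH3-only members were among these 7. The calls of BAK1 and BCL2A1 were the ones that leaving out other libraries most often ended, including any untreated WT library.

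The levels reached under H2O2 were compared directly between Atg7KO and WT cells at 12 h. All 4 BH3-only members were lower in Atg7KO cells, as were MCL1 and BAK1, and BCL2, BCL2L1 and BAX were higher. Of all genes tested, 27.7% were called higher and 27.9% lower, so a call alone is common in this comparison. PMAIP1 was lower by 0.96 on the log2 scale, written as a log2 fold change of -0.96 (SE 0.05, adjusted p = 1.34e-12), and its mean was 1.94 times higher in WT cells. BBC3 had a log2 fold change of -0.74 (SE 0.06, adjusted p = 5.01e-13), BCL2L11 of -0.72 (SE 0.06, adjusted p = 5.29e-12) and BID of -0.43 (SE 0.06, adjusted p = 2.58e-07). MCL1, which NOXA binds, had -0.53 (SE 0.04, adjusted p = 3.57e-14), and BAK1 had -0.31 (SE 0.05, adjusted p = 7.53e-06).

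BCL2 was higher in treated Atg7KO cells by 0.69, BAX by 0.30 and BCL2L1 by 0.23 on the log2 scale. In each of these 9 genes the 3 Atg7KO libraries did not overlap the 3 WT libraries. How many of all genes separate in this way was not counted, and 27.7% were called higher and 27.9% lower. BCL2A1 overlapped, with a log2 fold change of -0.04 (95% interval -0.31 to 0.22, adjusted p = 0.783). With a log2 fold change beyond 1 as a further condition none of the 10 members passed in the edgeR fit of these 6 libraries or in DESeq2, although PMAIP1 was at -1.003 with upper quartile scaling and at -1.03 without WT replicate 3. Of all genes, 7.46% passed that condition in the edgeR fit, with a mean above 1 FPKM as well, in either direction. In the same fit 9 members had an unadjusted p under 0.05, and the share of all genes at that level was not counted. In a fit of all 12 libraries, where the spread includes the library that stood apart, BCL2L1, BAX, BAK1 and BID no longer passed (adjusted p = 0.0423, 0.0873, 0.0112 and 0.0249). With a correction for gene length, BAK1 was at -0.14 and did not pass. It did not pass with limma at any setting either (adjusted p of 0.0120 to 0.0274).

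**Figure D3:**
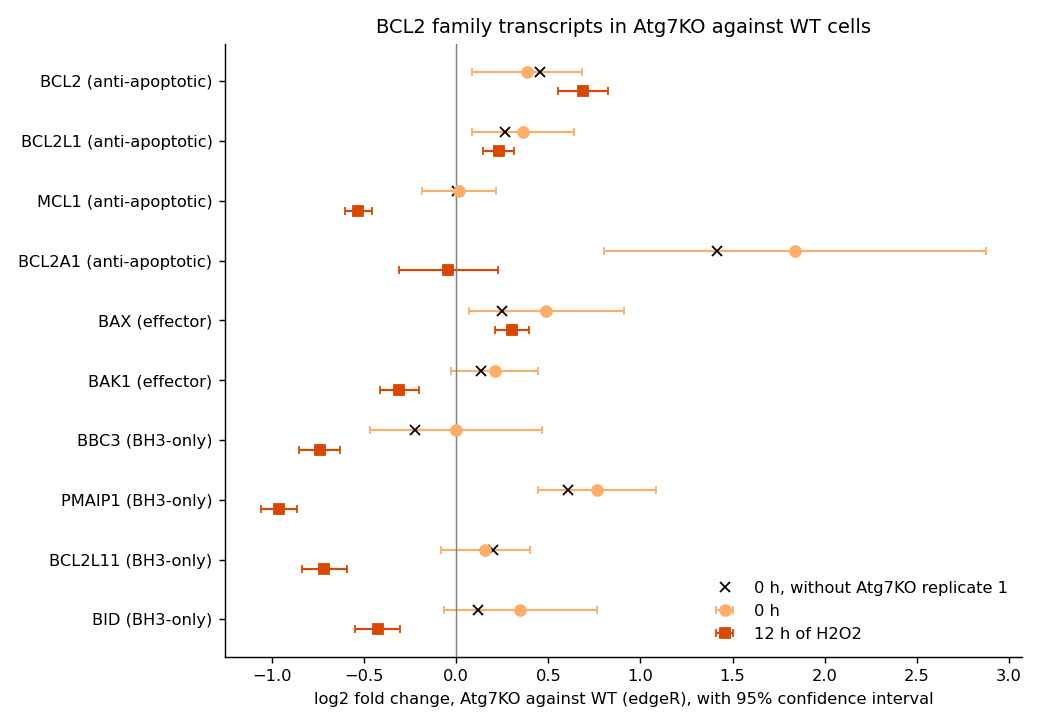
Log2 fold change of each member in Atg7KO against WT cells at 0 h (circles) and after 12 h of H2O2 (squares), with 95% confidence intervals from edgeR, and crosses for 0 h without untreated Atg7KO replicate 1. After H2O2 the 4 BH3-only genes lie between -0.96 and -0.43 and BCL2 at 0.69, while at 0 h PMAIP1 lies at 0.76.

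The untreated genotypes were compared in the same way. PMAIP1 was the only member called at 0 h, higher in Atg7KO cells by 0.76 on the log2 scale (SE 0.14, adjusted p = 0.00982), the opposite direction to 12 h. Of all genes tested, 4.42% were called higher and 3.28% lower. BCL2A1 had the largest value, 1.84 (95% interval 0.80 to 2.88, adjusted p = 0.0282), from counts of 6 to 11 reads in WT and 21 to 48 in Atg7KO libraries. BAX was at 0.49 (adjusted p = 0.104) and BCL2L1 at 0.36 (adjusted p = 0.0738), neither of which passed. The log2 fold changes of MCL1 (0.02, 95% interval -0.19 to 0.22) and BBC3 (interval -0.47 to 0.46) were near 0. With a log2 fold change beyond 1 as a further condition no member passed in edgeR, and DESeq2 passed 1, BCL2A1. In edgeR 3.5% of all genes passed this condition, with a mean above 1 FPKM as well, in either direction. In that fit 5 members had an unadjusted p under 0.05, and the share of all genes at that level was not counted. That call of PMAIP1 lay just inside the threshold and was lost without any 1 of the 3 WT libraries or of Atg7KO replicates 2 and 3, with limma, with the replicate number as a block and with upper quartile scaling, while its value stayed between 0.73 and 0.84 in those fits.

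Without untreated Atg7KO replicate 1, however, 5 members were called higher at 0 h, when 18.2% of all genes were higher and 17.9% lower. PMAIP1 was then at 0.61 (adjusted p = 1.28e-22), BCL2A1 at 1.42 (adjusted p = 0.00468), BCL2 at 0.46 (adjusted p = 0.000176), BCL2L1 at 0.26 (adjusted p = 0.000306) and BAX at 0.25 (adjusted p = 0.000163). These fits rest on 2 untreated Atg7KO libraries.

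The balance between roles was described by summing FPKM over the members of each role. The anti-apoptotic members summed to 76.6 ± 0.790 FPKM (SD, n = 3) in WT at 0 h and 184 ± 7.70 after H2O2, and to 82.9 ± 4.29 and 153 ± 2.06 in Atg7KO cells. The effectors summed to 41.8 ± 0.334 and 127 ± 4.94 FPKM in WT, and to 54.0 ± 10.7 and 123 ± 6.14 in Atg7KO cells. The BH3-only members summed to 43.1 ± 0.953 and 454 ± 38.4 FPKM in WT, and to 66.7 ± 13.1 and 240 ± 4.61 in Atg7KO cells. Without untreated Atg7KO replicate 1 the Atg7KO sums at 0 h were 79.5 and 81.3 FPKM for the anti-apoptotic members, 47.2 and 48.4 for the effectors and 58.9 and 59.4 for the BH3-only members in the remaining 2 libraries. The BH3-only sum showed the widest gap between treated genotypes. Most of it was PMAIP1, which made up 18.7% of the FPKM of all 10 members in WT at 0 h, 52.3% after H2O2, 25.1% in Atg7KO at 0 h and 40.0% after H2O2. MCL1 made up 38.0% in WT at 0 h and 17.0% after H2O2, and 30.8% and 17.5% in Atg7KO cells. In those 2 untreated Atg7KO libraries PMAIP1 made up 24.2% and 24.5%, and MCL1 32.6% and 32.8%. These shares are of transcripts per length and say nothing of protein amounts.

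**Figure D4:**
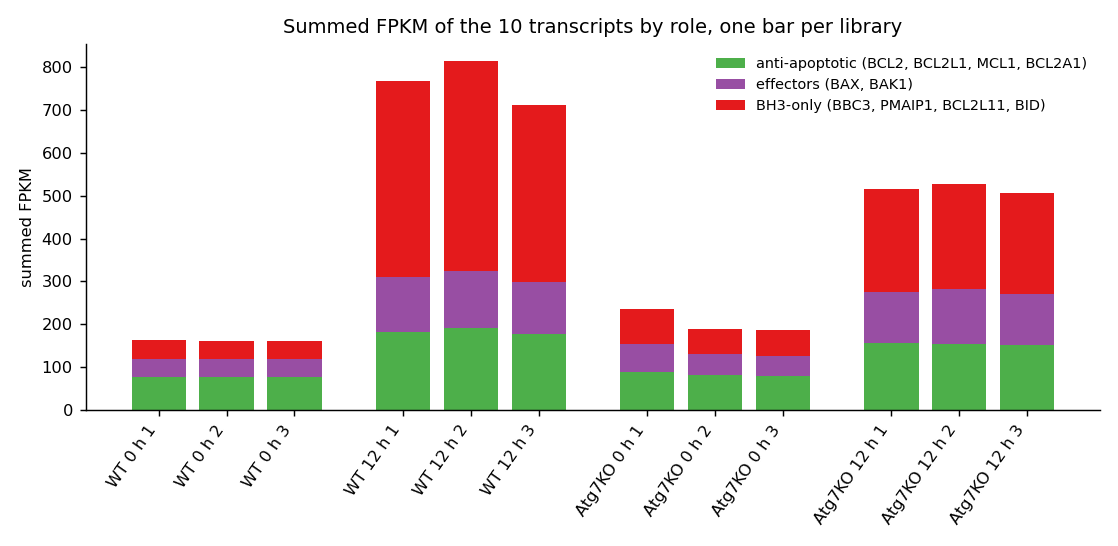
Summed FPKM of the 10 members in each of the 12 libraries, stacked by role (anti-apoptotic, effector, BH3-only). The total is 160 to 163 in WT at 0 h, 712 to 814 in WT after H2O2, 186 to 236 in Atg7KO at 0 h and 506 to 527 in Atg7KO after H2O2, and the BH3-only part carries most of the gap between treated genotypes.

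The ratio of BAX to BCL2, often used as an index of readiness for apoptosis, was computed per library from FPKM. It was 21.0, 19.1 and 19.6 in WT at 0 h and 21.0, 20.2 and 21.9 after H2O2. Atg7KO libraries had ratios of 31.1, 16.03 and 18.6 at 0 h and of 15.98, 16.35 and 15.99 after H2O2. Treated Atg7KO libraries thus lay below all treated WT libraries, with a difference of -0.38 on the log2 scale. An exact two-sided permutation test of 3 libraries against 3 gave p = 0.1, the smallest value it allows, and p = 0.4 after Benjamini-Hochberg adjustment over the 4 pairs of groups. The groups overlapped in the other pairs, which were H2O2 in WT cells (0.08, exact permutation p = 0.3), H2O2 in Atg7KO cells (-0.38, exact permutation p = 0.2) and the untreated genotypes (0.08, exact permutation p = 1). Without untreated Atg7KO replicate 1 the last of these differences was -0.20 and that with H2O2 in Atg7KO cells was -0.10.

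The ratio of PMAIP1 to MCL1, a BH3-only gene and the gene of the protein it binds, was described after its values were seen and was not tested. It was 0.489 to 0.495 in WT at 0 h and 2.98 to 3.18 after H2O2. In Atg7KO cells it was 0.743 to 0.985 at 0 h, or 0.743 and 0.748 without replicate 1, and 2.25 to 2.33 after H2O2. No groups overlapped in this ratio.

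The rest of the family was read from a list of 14 other genes, of which 10 had enough reads to test. In WT cells H2O2 moved 1 higher and 3 lower, against 30.9% and 30.1% of all genes, with a median log2 fold change of 0.02. BMF, a BH3-only gene linked to the cytoskeleton, fell by 1.47 on the log2 scale (SE 0.13, adjusted p = 2.46e-14), the opposite direction to the BH3-only members above, and BNIP3L, a mitophagy receptor, fell by 0.46 (SE 0.04, adjusted p = 6.33e-13). At 12 h of H2O2, 2 were higher and 4 lower in Atg7KO than in WT cells, against 27.7% and 27.9% of all genes. BMF was higher by 1.55 (SE 0.12, adjusted p = 1.99e-12), at 3.32 against 1.12 FPKM, and BCL2L12 was lower, at -0.89 (SE 0.08, adjusted p = 4.1e-11). At 0 h, where 4.42% of all genes were higher, BMF was higher by 1.27 (adjusted p = 0.00357). BCL2L2, which encodes the anti-apoptotic BCL-w, was higher by 1.07 (adjusted p = 0.000728). Without the library that stood apart these values were 1.42 and 1.08. Of the 10 genes, 4 were then called higher and 4 lower at 0 h, against 18.2% and 17.9% of all genes. In Atg7KO cells 2 were called lower after H2O2, against 12.4% of all genes, BCL2L12 at -1.21 and BMF at -1.19. Without that library these were at -0.92 and -1.33, and 2 genes were higher and 5 lower, against 29.8% and 28.6% of all genes. No response of these 10 was called different between genotypes. An unadjusted p under 0.05 was seen for 3, and the share of all genes at that level was not counted. Without that library 1 of 11 tested was called larger and 3 smaller in Atg7KO cells, against 17.8% and 16.3% of all genes.

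Of 13 transcription regulators known to act on the family, 12 were tested. In WT cells H2O2 raised 10 and lowered 2, against 30.9% and 30.1% of all genes, led by the ubiquitin ligase gene MDM2 at 3.50 (SE 0.05, adjusted p = 5.78e-45) and the AP-1 subunit JUN at 1.996 (SE 0.05, adjusted p = 3.74e-36). At 12 h 3 were higher and 7 lower in Atg7KO cells, against 27.7% and 27.9% of all genes, among them MYC at -1.58 (SE 0.05, adjusted p = 2.85e-22). In Atg7KO cells 4 rose and 1 fell with H2O2, against 13.6% and 12.4% of all genes, with MDM2 at 4.38 (SE 0.11, adjusted p = 2.97e-06). The response was called smaller in Atg7KO cells for 5, with NFKB1 at -1.05 (adjusted p = 0.000386), and larger for 2, against 7.01% and 7.02% of all genes. Without untreated Atg7KO replicate 1 the last counts were again 5 and 2, when 16.3% and 17.8% of all genes were called, with NFKB1 at -1.15. In Atg7KO cells 7 then rose and 3 fell, with MDM2 at 4.36, against 29.8% and 28.6% of all genes. At 0 h only MYC was called, at -0.69 (adjusted p = 0.00475), when 3.28% of all genes were lower. Without that library MYC was at -0.61, and 3 were higher and 3 lower, against 18.2% and 17.9% of all genes.

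Of 7 genes for the turnover of the MCL1 and NOXA proteins, H2O2 raised 3 and lowered 4 in WT cells, where 30.9% of all genes were higher and 30.1% lower. FBXW7, a substrate receptor of a ubiquitin ligase, rose by 2.32 (SE 0.07, adjusted p = 1.65e-31), and HUWE1, a ubiquitin ligase of MCL1, fell by 0.96 (SE 0.04, adjusted p = 3.74e-25). At 12 h 3 were higher and 2 lower in Atg7KO cells, against 27.7% and 27.9% of all genes, with HUWE1 at 0.80 (SE 0.04, adjusted p = 1.38e-18) and USP9X, a deubiquitinase of MCL1, at 0.56 (SE 0.03, adjusted p = 8.04e-16). In Atg7KO cells 2 rose with H2O2, FBXW7 at 1.92 and GSK3B at 0.76, against 13.6% of all genes. Without the library that stood apart these were at 1.87 and 0.59, and 4 genes rose and 1 fell, against 29.8% and 28.6% of all genes. The response was called different for CUL5 (0.76, adjusted p = 0.000447) and UBE2J2 (-0.74, adjusted p = 0.00868), when 7.02% of all genes had a larger response in Atg7KO cells and 7.01% a smaller one. Without that library CUL5 was at 0.78 and UBE2J2 at -0.53, and 5 were larger and 2 smaller, against 17.8% and 16.3% of all genes. At 0 h CUL5 was lower in Atg7KO cells, at -0.52 (adjusted p = 0.00832), as were 3.28% of all genes. Its value was -0.53 without that library, and 2 genes were higher and 3 lower, against 18.2% and 17.9% of all genes.

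The last list held 11 other genes of the mitochondrial pathway, among them the membrane channel genes VDAC1 and VDAC2. In WT cells H2O2 raised 7 of these 11 and lowered 2, against 30.9% and 30.1% of all genes. APAF1, the scaffold of the apoptosome, rose by 1.80 (SE 0.06, adjusted p = 4.22e-31). At 12 h 2 were higher and 4 lower in Atg7KO cells, against 27.7% and 27.9% of all genes, with ENDOG, a mitochondrial nuclease, at -1.65 (SE 0.16, adjusted p = 8.17e-11) and AIFM1 at -0.45 (SE 0.06, adjusted p = 6.66e-08). In Atg7KO cells 3 rose and 3 fell with H2O2, against 13.6% and 12.4% of all genes, with APAF1 at 1.84 (SE 0.14, adjusted p = 0.000118) and ENDOG at -1.79 (SE 0.21, adjusted p = 0.000725). Without the library that stood apart APAF1 was at 1.70 and ENDOG at -1.60, and 6 rose and 3 fell, against 29.8% and 28.6% of all genes. The response was called smaller for ENDOG (-2.03, adjusted p = 0.000107) and AIFM1 (-0.62, adjusted p = 0.00275), as for 7.01% of all genes. Without that library ENDOG was at -1.82 and AIFM1 at -0.52, and 3 were smaller and 1 larger, against 16.3% and 17.8% of all genes. The difference for APAF1 was 0.04 (95% interval -0.29 to 0.37, adjusted p = 0.875), and -0.09 without that library. None of the 11 was called at 0 h by edgeR. There 1 had an unadjusted p under 0.05, and the share of all genes at that level was not counted. Without that library 2 were higher and 2 lower at 0 h, against 18.2% and 17.9% of all genes.

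The genes whose log2(FPKM + 1) followed each member most closely over the 12 libraries were named as a description. These libraries share treatment and genotype, so high values are common, and for 9 of the members at least 180 of 12557 genes had a Pearson r above 0.95. The closest were ZFP36L2 and MAFF for PMAIP1, RND3 and RAP2B for BBC3, NEDD9 and S1PR3 for BCL2L11, and PTAFR and AC144831.1 for MCL1. For BCL2L1 they were PHLDA3 and CSNK1E, for BAX PPP2CB and TRIAP1, for BAK1 SH3BP5L and PICART1, for BCL2 SUCO and SEMA3F, and for BCL2A1 TFPI2 and MRPL39. BID had 39 such genes, among them CIAO2B (r = 0.982). Between members, BAK1 and BBC3 were the most alike (r = 0.992) and BCL2 and BID the least (r = 0.06).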

How the data were processed

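RNA-seq of 12 libraries was taken from the deposited tables. The authors deposited raw counts, whole reads per gene without normalization, and FPKM values computed from them by gene length and library size. The submitters' processing notes name HISAT2 2.0.5, featureCounts 1.5.0-p3 and GRCh38, and the strand setting and the treatment of multiply mapped reads are not given in the sources used here. Samples were grouped by their titles.

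Counts were tested with edgeR 4.0.16 in R 4.3.3 (filterByExpr with a minimum count of 10, TMM scaling, robust quasi-likelihood test), each comparison on its own 6 libraries and the interaction on all 12, with Benjamini-Hochberg adjustment over all genes tested. All members passed the filter in every comparison. The script was tested on simulated data. Each edgeR p-value sets a difference between groups against the spread between replicate libraries. The labels do not state whether that spread includes differences between clones. The members and lists were chosen with earlier results of these data known. All members are named. Of each other list, the 2 called genes with the largest log2 fold change and a mean above 1 FPKM are named per comparison, and for each member the 2 genes with the most similar pattern. ATG7 and markers are named as checks. Some genes that this rule takes are not reported here. Where a symbol had 2 rows, the row with more reads was used. Alternatives were DESeq2 1.42.0, RLE and upper quartile scaling, no filter, all 12 libraries, a block for the replicate number, leaving out single libraries, a gene length correction (lowess span 0.3), limma 3.58.1 on log2(FPKM + 1) and log2(FPKM + 0.1), and an adjusted p under 0.05.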

Additional observations from a re-analysis of the deposited data

Results flagged for a closer look

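The response to H2O2 differed between Atg7KO and WT cells for 5 members by the interaction test in edgeR. Of all genes, 7.01% were called with a smaller response in Atg7KO cells and 7.02% with a larger one. On the log2 scale the difference was -1.72 for PMAIP1, -1.87 for BCL2A1, -0.87 for BCL2L11, -0.54 for MCL1 and -0.51 for BAK1, each a smaller rise in Atg7KO cells. With a correction for gene length BAK1 was at -0.21 and did not pass (adjusted p = 0.129). With limma neither BCL2A1 (adjusted p of 0.0178 to 0.0613) nor BAK1 (0.0135 to 0.0245) passed at any setting. The calls of BCL2A1 and BAK1 were also lost without any 1 untreated WT or treated Atg7KO library. For PMAIP1, BCL2A1, BAK1 and BCL2L11 the untreated Atg7KO libraries lay above the untreated WT libraries, and for MCL1 they overlapped. Treated Atg7KO libraries lay below treated WT libraries for PMAIP1, BCL2L11, MCL1 and BAK1, and overlapped them for BCL2A1. Groups of 3 libraries are too small for a test of single outlying values.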

How the results depend on the processing

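In WT cells all 10 members were called after H2O2 in each alternative and with any library left out. All-gene calls, in either direction, ranged from 6829 of 16856 with all 12 libraries to 10982 of 15913 with an adjusted p under 0.05. In Atg7KO cells the count was 8 to 9 over the alternatives and 6 to 9 with a library left out. All-gene calls were 2194 of 31832 (limma without a filter) to 6680 of 15475 (adjusted p under 0.05) over the alternatives. With a library left out they were 1767 of 15971 to 9341 of 16002. At 12 h, 9 members were called in Atg7KO against WT cells, and 5 in a fit of all 12 libraries. The count was 8 with the gene length correction and with each limma setting. Of all genes, 8847 of 15909 were called by edgeR on the 6 libraries and 4876 of 16856 with all 12. The number was 8460 of 15909 with the gene length correction and 5266 of 34723 to 6580 of 22429 with limma. At 0 h, 1 member was called, and 2 with DESeq2, with an adjusted p under 0.05 or with no filter. The count was 4 with all 12 libraries and 0 with upper quartile scaling. It was also 0 with limma on log2(FPKM + 1), on log2(FPKM + 0.1) or without a filter. In those limma fits and with upper quartile scaling, 3 to 5 members had an unadjusted p under 0.05. The share of all genes at that unadjusted level was not counted. Of all genes, 1182 of 15357 were called at 0 h, 2306 of 17623 with DESeq2 and 2844 of 15357 at an adjusted p under 0.05. The number was 1646 of 30616 with no filter, 3154 of 16856 with all 12 libraries and 1167 of 15357 with upper quartile scaling. With limma it was 644 of 20466, 676 of 20466 and 349 of 30616 in the order above. With a library left out the count at 0 h was 0 to 5 members, when 287 of 15730 to 5734 of 15848 genes were called. The interaction called 5 members, 7 with DESeq2 or an adjusted p under 0.05, 6 with upper quartile scaling or no filter, 3 with each limma setting, and 3 to 7 with a library left out. Of all genes, the interaction called 2366 of 16856, 3538 of 17383 with DESeq2 and 5079 of 16856 at an adjusted p under 0.05. It called 2370 of 16856 with upper quartile scaling, 4054 of 36648 with no filter and 1525 of 36648 to 2009 of 21680 with limma. With a library left out, 1332 of 17320 to 5974 of 17543 genes were called. The cause of these changes in count was not tested.

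Replicate numbers did not pair the samples, since same-numbered libraries' deviations correlated between -0.04 and 0.10. With the replicate block, 0 members were called at 0 h, when 499 of 15357 genes were. MCL1 was then not called after H2O2 in Atg7KO cells. For the BAX to BCL2 ratio at 12 h (-0.38) the exact permutation p was 0.25 with the block, against 0.1 without it. For this ratio between untreated genotypes, values with a library left out ranged from -0.20 to 0.28, for treated genotypes from -0.41 to -0.36, for H2O2 in WT from 0.05 to 0.12 and in Atg7KO cells from -0.58 to -0.10.

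Single values that changed sign were small. BCL2A1 at 12 h was 0.12 with the gene length correction and -0.14 to 0.042 with a library left out, above 0 without WT replicate 3 (0.037) or Atg7KO replicate 2. BBC3 at 0 h was 0.0055 with DESeq2, 0.0083 with upper quartile scaling and 0.0031 with no filter, and -0.23 to 0.12 with a library left out. In the interaction the gene length correction gave -0.082 for BCL2, 0.020 for BCL2L1 and 0.086 for BAX. That correction ended the call of BAK1, at -0.21, and added that of BID, at -0.75. In the interaction BAX ranged from -0.28 to 0.070 with a library left out, the latter without untreated Atg7KO replicate 1. Few reads limit BCL2A1 in untreated WT cells, and 3 libraries per group limit the rest.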
